A study of Mus musculus with 18 samples.

Results

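Open chromatin far from gene starts often lies in dense clusters, and 3275 such regions from mouse lung endothelial cells are described here. They were found by merging the overlapping ATAC-seq peaks of 18 mice (chromosomes 1 to 19, X and Y, mouse build mm10), which gave 47338 regions with a peak in 2 or more mice. Of these, 32850 were distal, with a midpoint over 2 kb from every transcription start site (TSS) of the curated RefSeq transcripts, and distal neighbours whose midpoints lay at most 12.5 kb apart were joined into chains. Chains of 6 or more regions numbered 422, and their 3275 regions, called members below, made up 9.97% of the distal regions and 6.92% of all regions. With the TSSs of predicted RefSeq transcripts counted as well, the rule gives 2416 members in 321 chains. The rule used position and the presence of a peak in any 2 mice, and no group label.

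There were 5 Young Sham and 4 Young Bleo mice, and 4 Aged Sham and 5 Aged Bleo mice. All were Col1α1-GFP transgenic FVB animals, with collagen-producing cells marked by GFP, young mice being 2 months old and aged mice 18 months old. Bleo mice had received about 1 U/kg bleomycin, a drug that injures the lung and causes fibrosis, into the trachea, Sham mice had received PBS, and lungs were taken on day 30. Endothelial cells were sorted as live CD31+ cells that lacked CD45, CD326 (EpCAM) and GFP, and each library came from 1 mouse. Females and males were used, the sex of each mouse was not among the labels, and the purity of the sort was not measured.

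ATAC-seq cuts accessible DNA with a transposase, so that open promoters and enhancers are read as peaks. Enhancers are distal regions that bind transcription factors and act on promoters over long distances, and genes that define a cell type often carry several of them in a row, a configuration known as a super-enhancer or stretch enhancer when its histone marks are measured. In endothelial cells many such elements hold the GGAA core of ETS factors such as ERG, FLI1 and ETS1, which maintain endothelial identity. No histone mark was measured here, so the chains are named by their leading gene, the gene whose TSS was nearest to the most members (in a tie, the gene with the smaller summed distance). Nearness does not show which gene a region acts on.

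The following sequences show what members look like. Each is the 200 bases around the strongest summit of the named member, read from the RefSeq GRCm38.p6 genome (the assembly of mm10) on the plus strand. It is the C57BL/6J reference, whereas the mice were FVB. Capitals mark the letters of 7 short motifs searched on both strands, each named for a family of factors. ETS was searched as CAGGAAG and AP-1 as TGANTCA. SOX was searched as CCATTGT and FOX as TGTTTAC. KLF was searched as CCNCACCC, GATA as AGATAAG and TEAD as ACATTCC. The first 7 are the strongest members of chains at endothelial genes, of a chain with a small unadjusted p between groups (Glp1r) and of one of the longest chains (Irf2bpl). The last is the member called in all 5 Young Sham mice and in no other mouse.

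S1pr1 chain, chr3:115682860-115683059: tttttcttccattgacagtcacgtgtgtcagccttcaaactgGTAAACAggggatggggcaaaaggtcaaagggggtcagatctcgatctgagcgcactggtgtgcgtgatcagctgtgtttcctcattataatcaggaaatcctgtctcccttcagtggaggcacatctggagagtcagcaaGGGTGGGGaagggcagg
Flt1 chain, chr5:147657925-147658124: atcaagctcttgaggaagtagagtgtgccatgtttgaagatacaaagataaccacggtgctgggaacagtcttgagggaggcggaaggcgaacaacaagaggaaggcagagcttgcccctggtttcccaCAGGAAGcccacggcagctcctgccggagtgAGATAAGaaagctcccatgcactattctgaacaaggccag
Cldn5 chain, chr16:18733229-18733428: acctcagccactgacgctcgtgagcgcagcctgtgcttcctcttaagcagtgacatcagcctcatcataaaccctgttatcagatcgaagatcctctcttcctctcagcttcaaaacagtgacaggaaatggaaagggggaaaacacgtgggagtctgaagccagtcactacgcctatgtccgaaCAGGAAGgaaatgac
Cdh5 chain, chr8:104121984-104122183: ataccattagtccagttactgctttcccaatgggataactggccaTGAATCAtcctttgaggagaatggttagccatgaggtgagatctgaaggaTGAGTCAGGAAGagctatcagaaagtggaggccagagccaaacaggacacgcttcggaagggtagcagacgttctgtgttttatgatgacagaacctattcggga
Irf2bpl chain, chr12:86770371-86770570: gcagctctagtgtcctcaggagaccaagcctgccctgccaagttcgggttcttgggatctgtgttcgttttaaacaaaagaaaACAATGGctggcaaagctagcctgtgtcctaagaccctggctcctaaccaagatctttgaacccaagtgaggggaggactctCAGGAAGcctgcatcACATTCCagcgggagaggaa
Glp1r chain, chr17:30882214-30882413: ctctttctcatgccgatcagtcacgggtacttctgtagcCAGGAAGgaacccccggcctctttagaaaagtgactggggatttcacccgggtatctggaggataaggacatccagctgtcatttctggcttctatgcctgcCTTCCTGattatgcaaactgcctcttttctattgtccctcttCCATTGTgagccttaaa
Kit chain, strongest member, chr5:75478584-75478783: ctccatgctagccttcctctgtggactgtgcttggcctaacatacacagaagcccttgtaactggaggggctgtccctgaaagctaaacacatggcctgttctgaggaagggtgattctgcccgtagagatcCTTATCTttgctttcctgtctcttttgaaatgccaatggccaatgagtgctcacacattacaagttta
Kit chain, member called in Young Sham, chr5:75459492-75459691: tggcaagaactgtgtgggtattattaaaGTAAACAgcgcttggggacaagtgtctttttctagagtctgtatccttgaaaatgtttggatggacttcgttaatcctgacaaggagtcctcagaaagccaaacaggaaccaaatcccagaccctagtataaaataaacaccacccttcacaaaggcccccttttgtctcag

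The S1pr1 member, 32151 bases downstream of the TSS, held 1 FOX and 1 KLF match. In the Flt1 member, 67962 bases into the gene, an ETS and a GATA match lay within the same 200 bases. The member of the Irf2bpl chain, itself nearest to Lrrc74a, held 1 match each for ETS, SOX and TEAD, and the Cldn5 member 1 ETS match. The Cdh5 chain's member held 2 AP-1 matches and 1 ETS match, and the second AP-1 match shared its last bases with the ETS match. The Glp1r member held 2 ETS matches, 1 on each strand, and 1 SOX match. Each of these members was called, meaning that it overlapped a peak by at least 1 base, in all 18 mice, and so was the strongest Kit member, whereas the last sequence was called in 5 mice.

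The chains were mostly short, with a median of 7 members and a longest of 24 (the plot of chain lengths). Of the 422, 263 had 6 or 7 members and 67 had 10 or more. They spanned from 5.94 to 127.5 kb, with a median of 33.2 kb, and the median distance between neighbours within a chain was 4.90 kb. A single gene was nearest to every member in 236 chains, and the 422 chains had 400 different leading genes. Just outside the rule lay 318 chains of exactly 5 regions. Of their 1590 regions 24.5% were called in all 18 mice, against 25.8% of the regions in the 155 chains of exactly 6.

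**Figure D1:**
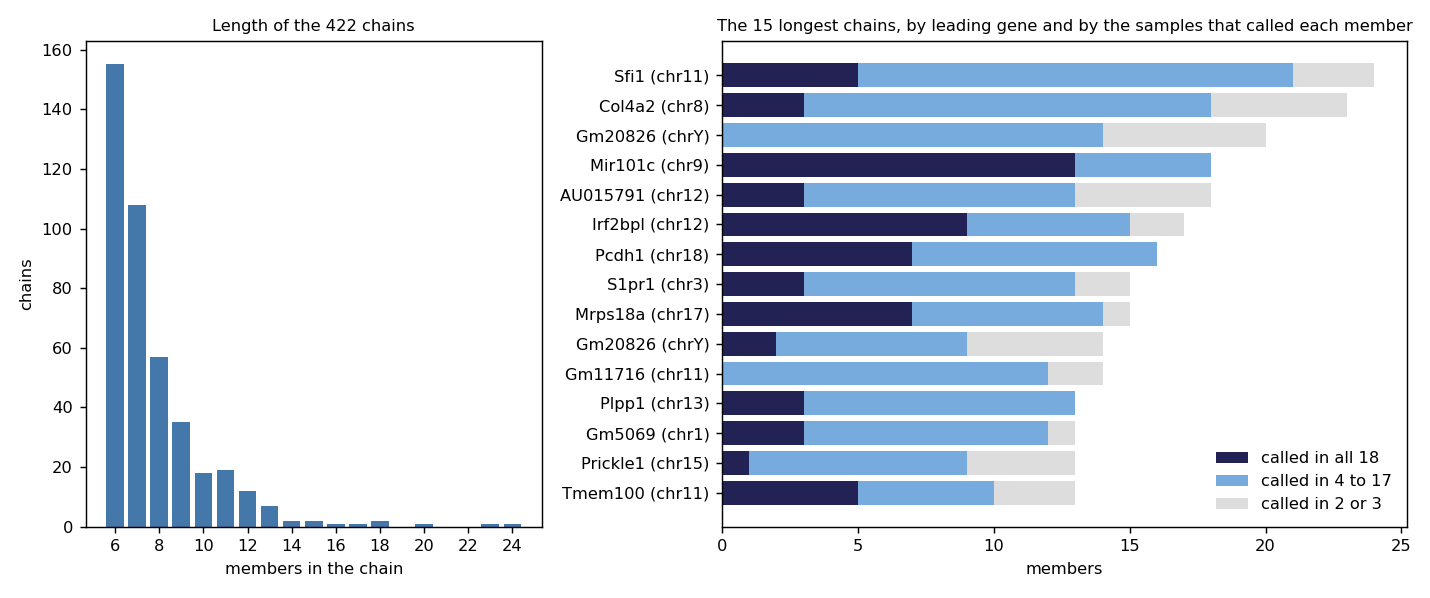
Left, number of chains (y axis) by number of members (x axis). Right, members of the 15 longest chains by leading gene, a cut that leaves out some of the 7 chains with 13 members, split by how many of the 18 mice called each member. In the Mir101c chain 13 of the 18 members were called in all mice, against 5 of 24 at Sfi1 and 3 of 23 at Col4a2.

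The longest chain held 24 members on chromosome 11 and lay at Sfi1, nearest to 13, and the pseudogene Pisd-ps1, nearest to 11. The second, with 23 members over 127.5 kb at chr8:11252355-11379888, covered Col4a1 and Col4a2, neighbouring genes for the main collagen IV chains of basement membranes. All 23 of these members lay in introns, 12 of them nearest to Col4a2 and 11 to Col4a1. S1pr1, the receptor for sphingosine 1-phosphate that keeps vessels tight, was nearest to every one of the 15 members at chr3:115641401-115713128. Of the 15 members at chr17:46063186-46139274, 11 were nearest to Mrps18a, 3 to Rsph9 and 1 to Vegfa, the main vascular growth factor. Other long chains lay at AU015791 and Bdkrb2 (18 members), Irf2bpl (17), Pcdh1 (16), Gm11716 (14), Plpp1, Gm5069, Prickle1 and Tmem100 (13 each). Tmem100 is an endothelial gene induced by BMP9 and BMP10 signalling.

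Some chains lay in repeated sequence, where reads cannot be placed with certainty. In 14 chains with 125 members, the median member had over 50% of its 32-base words elsewhere in the genome. Among the longest these were the Mir101c chain at the start of chromosome 9, with 96.7%, and a pair of Gm20826 chains on chromosome Y, with 60.1% and 59.8%. The Sfi1 chain, with 0.592%, was not one of them. Over all members 3.51% had more than 50% of their words elsewhere, against 2.26% of the other distal regions.

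The genes that led chains were compared with fixed gene lists, by counts and with no test. Of 21000 protein-coding RefSeq genes 340, or 1.62%, led a chain. Of 10 pan-endothelial markers 5 did so: Cdh5, the VE-cadherin of adherens junctions, Cldn5, the main claudin of their tight junctions, Egfl7, Erg and Pecam1, which encodes the CD31 used in the sort. Erg led by the rule for ties, with 3 members each nearest to Erg and Gm31641. Pecam1 led a 10-member chain in the same way, with 5 each for Pecam1 and Tex2, and a 6-member chain with no tie. The same rule named the Iffo2, Bcas1os2 and 8430430B14Rik chains described below. Of 33 endothelial transcription factors 11 led a chain: Elk3, Epas1, Erg, Ets1, Foxf1, Foxp1, Klf2, Lyl1, Meis1, Tal1 and Tcf4. Receptors of the VEGF and Tie list led chains for 4 of 20 genes, Flt1, Flt4, Kit and Nrp2, and Flt1, the VEGF receptor 1, led 3 separate chains of 12, 7 and 7 members. In the Notch, BMP and TGF-β list 5 of 26 did so, Acvrl1, Id1, Notch1, Smad6 and Smad7. Of 16 basement membrane genes 2 led a chain, Col4a2 and Lama5.

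Lung capillaries hold general capillary cells, which can divide, and aerocytes, which face the air. Of 8 general capillary markers 2 led a chain, Kit and Ptprb, whereas none of 10 aerocyte markers did, although all 10 were nearest to at least 1 distal region. None of 10 leukocyte, 10 epithelial or 10 fibroblast and mural markers led a chain or was nearest to a member. Compared with the capillary markers, fewer of these genes were nearest to any distal region. In each 10, 5, 4 and 7 were nearest to at least 1, and Ptprc, Epcam and Acta2 to none. Distal regions of any kind were counted in the same way, since a gene without them cannot lead a chain: 44.1% of coding genes were nearest to a distal region, against 93.9% of the endothelial transcription factors and 100% of the pan-endothelial markers.

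Sequence and position, which the rule used only through distance, were set beside those of the other distal regions. Their median distance to a TSS was 24.9 kb against 26.7 kb. Their median width was 410 bp against 387 bp, their median GC content in the 200-base window was 53% against 50%, and 54.99% lay in introns against 46.7%. The ETS letters were found in 27.2% of members, 23.5% of other distal regions and 19.96% of all 47338 regions. In windows of like GC the ETS shares lay closer together in some ranges than in others, from 18.4% of members and 18.1% of others under 45% GC, through 31.2% and 27.3% at 50 to 55% and 28.9% and 27.4% at 55 to 60%, to 24.2% and 18.6% at 60% or more. At least 1 member with the ETS letters was found in 381 of the 422 chains, and the chains at Sfi1, Col4a2, Ski, Flt1 and Myh9 held 7 each. The KLF letters were found in 16.0% of members against 11.52%, and in windows of like GC from 5.48% against 4.605% under 45% GC to 26.6% against 22.7% at 60% or more, with 13.7% against 12.48% at 50 to 55%. For the other motifs the shares lay closer together, at 8.31% and 7.12% for SOX, 10.7% and 10.996% for AP-1, 5.40% and 5.59% for FOX, 4.31% and 4.31% for GATA, and 4.0% and 3.51% for TEAD. These shares are descriptions, and a match of letters does not show binding.

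At each peak summit the lists also give, through fold enrichment and p, the number of fragments and the number expected from the surroundings. The median summit in a member held more fragments than in the other distal regions in all 18 mice, with medians between 20 and 34 against 16 to 25. The expected number was higher as well, at 1.75 to 3.49 against 1.10 to 1.98. As a result of both, the median fold enrichment was not above that of the other distal regions in any of the 18, at 6.88 to 8.40 against 7.29 to 8.83. Members were thus scored against a higher local background than the other distal regions.

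About 1 member in 4 was present in every mouse. Called in all 18 were 885 members, or 27.0%, against 20.5% of other distal regions and 72.3% of regions within 2 kb of a TSS, and 498 members, or 15.2%, were called in 2 or 3 mice. No chain had every member called in all 18 mice, and 52 chains had none. By group, every Young Sham mouse called 1639 members in common and every Young Bleo mouse 1778, whereas the Aged Sham mice shared 1219 and the Aged Bleo mice 973. These were 50.05, 54.3, 37.2 and 29.7% of members, against 42.5, 47.6, 29.2 and 23.8% of the other distal regions. Called in none of the group's mice were 460, 349, 821 and 310 members in the same order, or 14.05, 10.7, 25.1 and 9.47%, against 15.3, 11.7, 31.5 and 14.2% of the others. Members called in 50% or more of a group's mice numbered 2233 in Young Sham and 2541 in Young Bleo, against 1946 in Aged Sham and 1803 in Aged Bleo, or 68.2, 77.6, 59.4 and 55.1%, against 63.6, 74.97, 51.3 and 49.02% of the others. By this measure 1592 members, or 48.6%, were present in all 4 groups, against 40.6% of the other distal regions, and 475 (14.5%) in none, against 16.2%. Young Bleo alone held 366 (11.2%, against 13.9% of the others), Young Sham and Young Bleo together but neither aged group 188 (5.74% against 7.26%), and Young Sham alone 157 (4.79% against 4.89%). Aged Sham alone held 36 (1.10% against 1.20%) and Aged Bleo alone 11 (0.336% against 0.440%). The shares held by 1 group alone or by the young groups alone were thus no higher among members than among the other distal regions. Groups of 4 and 5 mice do not reach such a limit equally easily, and the lists differed in length, so these counts are not tested.

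The lists held from 21050 peaks (Aged Bleo 4) to 40883 (Aged Bleo 2). The background of a list, taken as the lowest expected number of fragments solved at its peaks, ranged from 1.02 to 1.78 fragments. Read depth is not given in the lists. The background moved with group, at a mean of 1.56 ± 0.235 (SD, n = 5) in Young Sham, 1.65 ± 0.102 (n = 4) in Young Bleo, 1.16 ± 0.200 (n = 4) in Aged Sham and 1.21 ± 0.220 (n = 5) in Aged Bleo. The lane code in the names of the lists, which the sample labels do not give, moved with age too. By this code all 5 Young Sham libraries and Young Bleo 4 were on lane 8, Young Bleo 1 to 3 and Aged Sham 1 to 3 on lane 7, and Aged Sham 4 with all 5 Aged Bleo libraries on lane 6. Between Young Sham and either aged group, age and lane cannot be told apart. Bleomycin was largely tied to lane as well, since only Young Bleo 4 shared a lane with the Young Sham mice and only Aged Sham 4 with the Aged Bleo mice, and the part of list length in the results below was not tested other than by the shortened lists described there. The first 3 comparisons share the Young Sham mice.

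The share of members called was 74.3, 73.6, 64.6, 72.5 and 56.2% in Young Sham mice 1 to 5. It was 68.5, 78.6, 77.5 and 63.3% in Young Bleo mice 1 to 4, 46.4, 64.7, 46.9 and 61.2% in Aged Sham mice 1 to 4, and 76.2, 84.3, 51.8, 34.3 and 47.5% in Aged Bleo mice 1 to 5. The young groups overlapped in part, Aged Sham lay lower with some overlap, and Aged Bleo held both the highest and the lowest mouse of the series. Group means were 68.2 ± 7.75% (SD, n = 5), 72.0 ± 7.32% (n = 4), 54.8 ± 9.53% (n = 4) and 58.8 ± 20.8% (n = 5). No difference passed the test: the difference from Young Sham was -13.4 percentage points in Aged Sham (two-sided exact permutation p = 0.0635, Benjamini-Hochberg adjusted over 4 comparisons 0.254), 3.74 points in Young Bleo (exact p = 0.5, adjusted 0.667) and -9.41 points in Aged Bleo (exact p = 0.373, adjusted 0.667). Aged Bleo minus Aged Sham was 4.02 points (exact p = 0.722), but -2.36 without Aged Bleo 2 and 10.2 without Aged Bleo 4. The bleomycin difference in aged mice minus that in young mice was 0.279 points (exact permutation p = 0.983), and -6.10 and 6.42 without the same mice. Leaving out 1 mouse also moved the difference from Young Sham between -15.8 (without Aged Bleo 2) and -3.27 points (without Aged Bleo 4) in Aged Bleo, and between 0.740 (without Young Sham 5) and 6.62 points (without Young Bleo 4) in Young Bleo. On lane 7 alone by the code, Aged Sham 1 to 3 minus Young Bleo 1 to 3 was -22.2 points (exact p = 0.1, the smallest possible with 3 against 3). Within lane 8 Young Bleo 4 minus the 5 Young Sham mice was -4.91 points, and within lane 6 the 5 Aged Bleo mice minus Aged Sham 4 was -2.36 points. Both were opposite in sign to the differences over all lanes, but each rests on 1 mouse on one side, so neither sign can decide about a group.

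Set against the other distal regions of the same list, members were called more often in all 18 mice. The difference in share was 2.95, 5.03, 5.14, 4.05 and 5.34 percentage points in Young Sham, 6.81, 3.62, 2.78 and 2.09 in Young Bleo, 6.56, 9.62, 8.29 and 6.54 in Aged Sham, and 5.91, 9.58, 2.80, 6.26 and 4.75 in Aged Bleo. Every Aged Sham mouse lay above every Young Sham mouse, while Aged Bleo spread over both. The mean was 4.50 ± 1.00 points (SD, n = 5) in Young Sham and 7.75 ± 1.49 (n = 4) in Aged Sham, a difference of 3.25 points (exact permutation p = 0.00794, the smallest possible with 4 against 5, adjusted 0.0317). The other distal regions had 63.7 ± 8.45% called in Young Sham (n = 5) and 47.1 ± 9.05% in Aged Sham (n = 4), which did not pass the adjusted test (exact p = 0.0476, adjusted 0.190). On lane 7 alone the excess in Aged Sham 1 to 3 minus that in Young Bleo 1 to 3 was 3.75 points (exact p = 0.2). Within lane 8 Young Bleo minus Young Sham was -2.41 points (exact p = 0.167, the smallest possible) and within lane 6 Aged Bleo minus Aged Sham was -0.680 (exact p = 0.667), with 1 mouse on one side in each. Young Bleo, with 3.83 ± 2.09 points (n = 4), and Aged Bleo, with 5.86 ± 2.48 (n = 5), showed no difference from Young Sham that passed (exact permutation p = 0.532 and 0.310), nor did Aged Bleo from Aged Sham (exact p = 0.206). Leaving out any 1 mouse kept the difference between Aged Sham and Young Sham between 2.63 and 3.66 points, at adjusted p of 0.0714 to 0.114 by the exact permutation test.

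These values changed when each list was shortened to its 21050 top peaks by p, the length of the shortest, a choice made after seeing the data. The members and chains were kept as they were. Between 33.9 and 42.8% of members were then called, with group means of 36.6 ± 0.978% (SD, n = 5) in Young Sham, 36.3 ± 1.95% (n = 4) in Young Bleo, 37.0 ± 1.73% (n = 4) in Aged Sham and 37.2 ± 3.65% (n = 5) in Aged Bleo. The excess over other distal regions was 7.09 ± 0.901 points (n = 5) in Young Sham and 8.48 ± 1.56 (n = 4) in Aged Sham, a difference of 1.39 points that did not pass the test (exact permutation p = 0.127, adjusted 0.508). Members remained above the other distal regions in all 18 shortened lists.

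**Figure D2:**
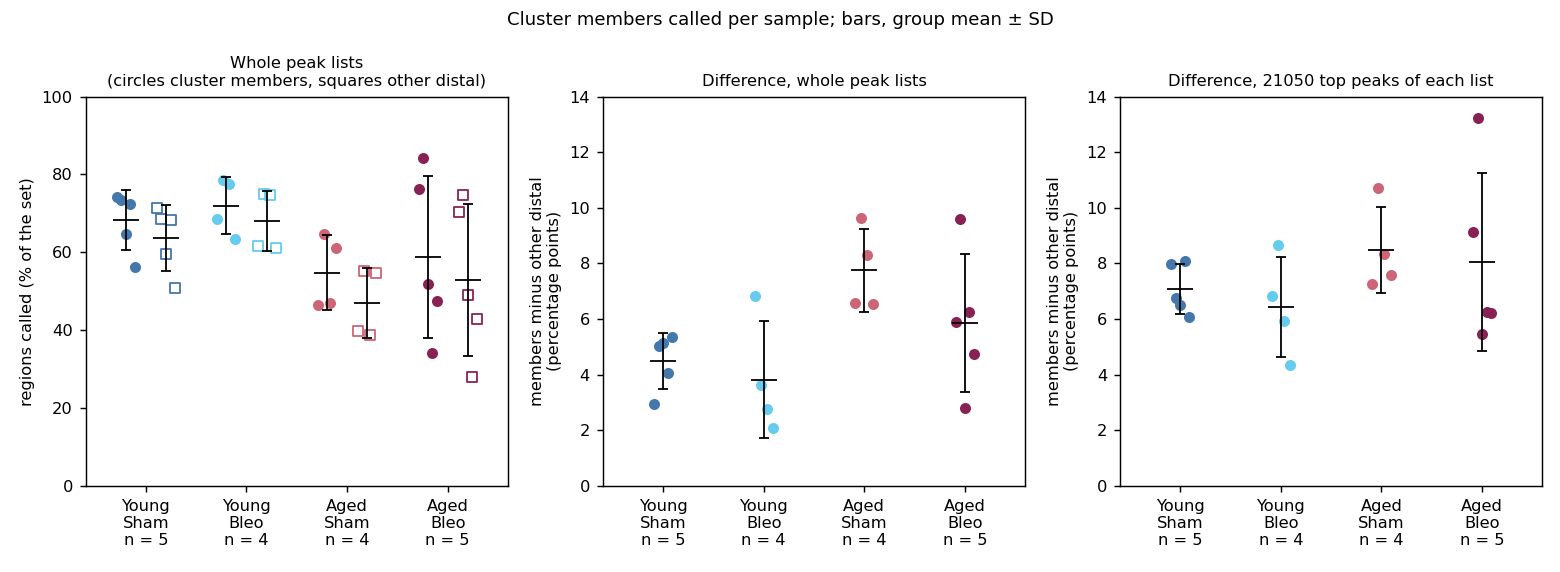
Left, percentage of members (circles) and of other distal regions (squares) called in each mouse; middle, their difference in percentage points; right, the same difference with each list shortened to 21050 peaks; bars show mean ± SD. The middle panel shows all 4 Aged Sham mice, from 6.54 to 9.62 points, above all 5 Young Sham mice, from 2.95 to 5.34, and the right panel shows these groups overlapping.

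Members were then tested 1 by 1. By Fisher's exact test on called and uncalled mice at an unadjusted p of at most 0.05, 182 members (5.56%) were called less often and 13 (0.397%) more often in Aged Sham than in Young Sham, against 4.9% and 0.264% of all 47338 regions. In Young Bleo against Young Sham 79 members were called less and 146 more often, or 2.41% and 4.46%, against 1.96% and 3.98% of all regions. For Aged Bleo against Young Sham the counts were 93 and 6, or 2.84% and 0.183%, against 3.01% and 0.201%, and for Aged Bleo against Aged Sham 11 and 13, or 0.336% and 0.397%, against 0.41% and 0.475%. The shares of members lay near those of all regions in each comparison. Among the other distal regions the shares called less and more often were 6.28% and 0.291% in Aged Sham against Young Sham. In Young Bleo against Young Sham they were 2.58% and 5.28%, and in Aged Bleo against Young Sham 3.74% and 0.267%. In Aged Bleo against Aged Sham they were 0.450% and 0.649%. Members lay above the other distal regions only in the share called more often in Aged Sham than in Young Sham. No member passed the Benjamini-Hochberg adjustment over all regions, the smallest adjusted p being 0.535, and with 4 against 5 mice the smallest p is 0.00794. Leaving out 1 mouse, which also limits the p, gave 1.37 to 2.53% of members in both directions together for Aged Sham against Young Sham. For Young Bleo against Young Sham it gave 1.95 to 3.54%, with the direction turned without Young Sham 5. For Aged Bleo against Young Sham it gave 3.21 to 7.36%. With a mouse left out no share over all regions is given, so these shares have no background beside them.

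The number of called members was next compared chain by chain, with exact permutation tests at an unadjusted p of at most 0.05. In Aged Sham against Young Sham 73 of 422 chains (17.3%) had fewer called members and none had more, against 8.65% and 0.298% of all 20485 chains of any length. Chains of 2 to 5 regions gave 12.2% lower and single regions 6.84%, so the share was higher for longer chains, which also take more values and so allow more p-values. In Young Bleo against Young Sham 13 chains were lower and 37 higher (3.08% and 8.77%), against 2.96% and 6.46%. In Aged Bleo against Young Sham 28 were lower and 1 higher (6.64% and 0.237%), against 4.54% and 0.298%, and in Aged Bleo against Aged Sham 1 was lower and 3 higher (0.237% and 0.711%), against 0.522% and 0.805%. Leaving out 1 mouse, which also limits the p, gave 4.98 to 13.7% of the 422 in both directions together for Aged Sham against Young Sham. It gave 3.79 to 9.24% for Young Bleo against Young Sham, where the direction turned without Young Sham 5. For Aged Bleo against Young Sham it gave 4.27 to 17.5%. No chain passed the adjustment over all chains, the smallest adjusted p being 0.326 by the exact permutation test. limma, run on the same counts, called 114 chains lower and 1 higher in Aged Sham against Young Sham at unadjusted p (27.3% of the 422 together). After adjustment limma called 10 lower and 0 higher in that comparison, 3 lower and 9 higher in Young Bleo against Young Sham, 1 lower and 0 higher in Aged Bleo against Young Sham, and 0 in Aged Bleo against Aged Sham (2 lower and 3 higher at unadjusted p). The smallest adjusted p by limma was 8.02e-17 in Aged Sham and 8.24e-17 in Young Bleo, each against Young Sham. By the exact permutation test these were 0.465 and 0.326. The counts are small whole numbers that in some chains did not vary within a group, such as 4930592I03Rik in Young Sham, so the adjusted limma calls are not relied on. With a replicate block limma called 13 lower and 0 higher in Aged Sham after adjustment, and 6 lower and 2 higher in Young Bleo, each against Young Sham. Those blocked fits left out Young Sham 5, so block and left-out mouse cannot be told apart. In Aged Bleo the blocked fits called 0 against either sham group. A member called in the mice of 1 group only entered through that group and so had to be higher there. There were 160 such members, and without them, a choice made after seeing the data, 68 chains were lower and none higher in Aged Sham against Young Sham, and 14 were lower and 38 higher in Young Bleo against Young Sham. For these counts, for limma and for the left-out mice no share over chains of any length is given, so none of them is set against a background.

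These counts depended on list length. With shortened lists 24 chains were lower and 30 higher in Aged Sham than in Young Sham (5.69% and 7.11% of the 422, against 1.61% and 1.22% of chains of any length), and 7 of the 73 remained lower. In Young Bleo against Young Sham 47 were lower and 38 higher (11.1% and 9% of the 422, against 3.2% and 3.66%), and 4 of the 13 lower and 11 of the 37 higher ones remained. In Aged Bleo against Young Sham 31 were lower and 20 higher (7.35% and 4.74%, against 1.89% and 1.1%), with 3 of the 28 remaining lower, and in Aged Bleo against Aged Sham 13 were lower and 8 higher (3.08% and 1.9%, against 0.742% and 0.586%), with 1 remaining lower. For chains called in both kinds of list no share over chains of any length is given, so these counts have no background. Divided by the number expected from the other distal regions of each list, 15 chains were lower and 76 higher in Aged Sham than in Young Sham (3.55% and 18% of the 422, against 4.74% and 23.6% of chains of any length). The counts on this scale were 51 lower and 32 higher in Young Bleo against Young Sham (12.1% and 7.58%, against 4.47% and 6.29%), 37 and 44 in Aged Bleo against Young Sham (8.77% and 10.4%, against 6.37% and 2.36%), and 12 and 7 in Aged Bleo against Aged Sham (2.84% and 1.66%, against 1.29% and 0.913%). As with the whole lists, longer chains take more values and so allow more p-values. It is a scale on which a region called in every mouse rises where the list is shorter.

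Among chains at endothelial transcription factors, those at Epas1 and Tal1 had fewer called members in Aged Sham than in Young Sham. Epas1 encodes HIF-2α, a hypoxia-induced factor of endothelium. Its 12-member chain had 11, 9, 10, 10 and 9 called members in Young Sham, 9, 10, 10 and 7 in Young Bleo, 6, 7, 5 and 7 in Aged Sham, and 9, 12, 5, 5 and 7 in Aged Bleo. Every Aged Sham mouse lay below every Young Sham mouse, with a mean difference of -3.55 members (exact permutation p = 0.00794, unadjusted), and Aged Bleo overlapped both. Shortening the lists left 4, 5, 5, 6 and 5 in Young Sham and 5, 4, 4 and 4 in Aged Sham, which overlapped. All 12 members were nearest to Epas1, and 11 lay in introns.

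Tal1 encodes a bHLH factor of blood and endothelial development, and 6 of the 11 members of its chain were nearest to it and 5 to Pdzk1ip1. Called were 11, 11, 8, 9 and 8 members in Young Sham, 8, 9, 9 and 8 in Young Bleo, 5, 6, 4 and 6 in Aged Sham, and 8, 7, 5, 3 and 4 in Aged Bleo. Members at -17998 bases and 14062 bases from the Tal1 TSS were each called in 3 Young Sham mice and in no other mouse, and so entered through Young Sham alone. Without them the counts were 9, 9, 8, 7 and 8 in Young Sham, and the difference from Young Sham was -2.95 members in Aged Sham (exact permutation p = 0.00794, unadjusted) and -2.8 in Aged Bleo, which did not pass (exact p = 0.0556). In the shortened lists Aged Bleo kept 3, 3, 2, 3 and 3 against 4, 4, 5, 5 and 4 in Young Sham, without overlap (exact p = 0.00794), and Aged Sham, with 5, 4, 4 and 4, overlapped Young Sham.

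At Erg itself, which encodes the ETS factor ERG, the 6-member chain showed 5, 5, 4, 6 and 4 called members in Young Sham, 4, 4, 5 and 4 in Young Bleo, 4, 5, 5 and 4 in Aged Sham, and 4, 4, 3, 3 and 4 in Aged Bleo. The groups overlapped. A member of this chain was called in 3 Young Sham mice and in no other mouse, and without it Young Sham had 4, 4, 4, 5 and 4. The difference from Young Sham was then -0.6 members in Aged Bleo (exact permutation p = 0.278) and 0.3 in Aged Sham (exact p = 0.524), and Aged Bleo minus Aged Sham was -0.9 (exact p = 0.159). The 9-member chain within Elk3, another ETS factor, had 6 to 7 called members in Young Sham and 4 to 8 in Aged Sham, with a difference of -0.35 that did not pass (exact permutation p = 0.802).

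A chain of 6 members lay upstream of Kit. Kit is the receptor for stem cell factor and a marker of general capillary cells. At chr5:75459435-75459846, -115346 bases from the Kit TSS, a member of 412 bp was called in 5 of 5 Young Sham mice and in none of the other 13. It was the only member called in every mouse of a group and in no other mouse, against 39 of all 47338 regions (0.0824%) for Young Sham. For Young Bleo there was no such member against 30 regions (0.0634%), and for the aged groups neither members nor regions. None of its 32-base words occurred elsewhere. It was singled out after its values were seen. Its median rank in the lists that held it was the 27.9th percentile by fold enrichment. In the lists shortened by p it was called in 2 Young Sham mice and in no other mouse.

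The whole 6-member Kit chain had 6, 6, 5, 6 and 4 called members in Young Sham, 3, 4, 4 and 4 in Young Bleo, 3, 3, 3 and 4 in Aged Sham, and 4, 4, 3, 2 and 3 in Aged Bleo. A second member, at -91020 bases from the TSS, was called in 3 Young Sham mice and in no other. Both entered through Young Sham alone, and without them the chain had 4, 4, 4, 4 and 3 called members in Young Sham. The difference from Young Sham was then -0.05 members in Young Bleo (exact permutation p = 1.0), -0.55 in Aged Sham (exact p = 0.206) and -0.6 in Aged Bleo (exact p = 0.405), so that no difference passed in the rest of the chain. With shortened lists Young Sham had 3, 5, 3, 4 and 3 and the other groups 2 or 3, so that the groups met at 3. The maps of called members along the chains show that the members at 13.3 and 19.4 kb from the chain's start were called in every mouse.

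**Figure D3:**
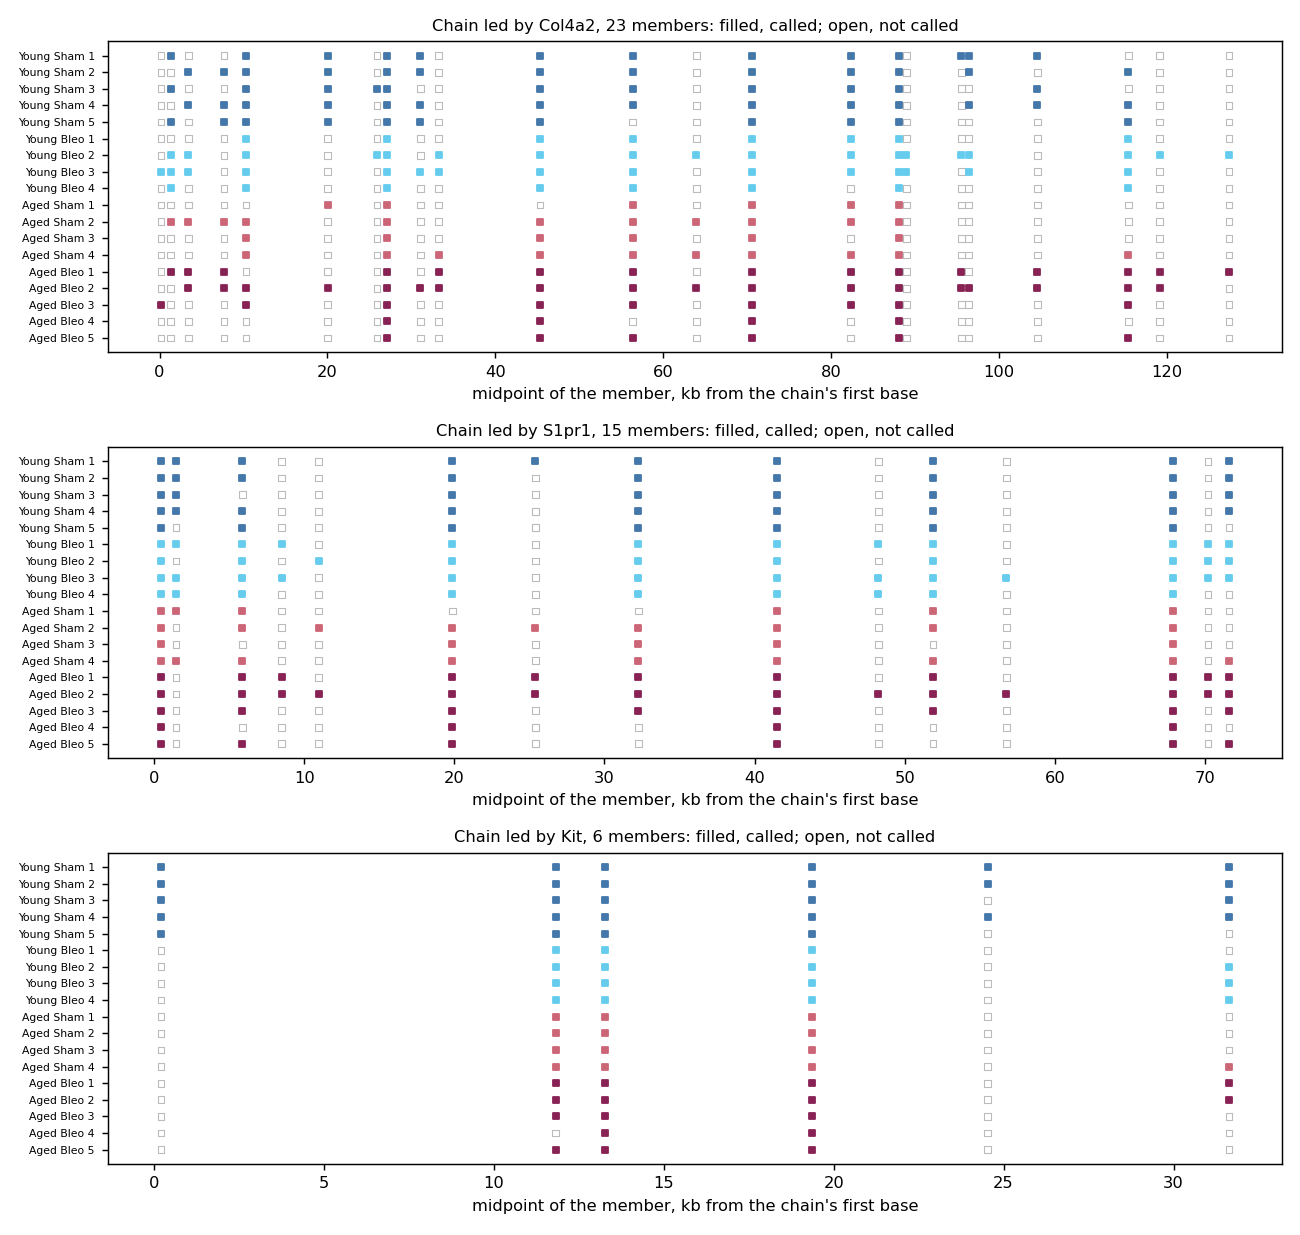
Each row is a mouse and each square a member at its distance in kb from the first base of the chain, filled where called and open where not, with colours for the 4 groups. At Kit the member at 0.206 kb is filled in the 5 Young Sham rows and open in the other 13, and at Col4a2 and S1pr1 a core of members is filled in all 18 rows, 3 in each chain.

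The long Col4a1 and Col4a2 chain had 13, 13, 11, 14 and 11 of its 23 members called in Young Sham, 8, 18, 15 and 8 in Young Bleo, 6, 11, 6 and 10 in Aged Sham, and 15, 18, 9, 4 and 6 in Aged Bleo. Aged Sham minus Young Sham was -4.15 members (exact permutation p = 0.0238, unadjusted), with 1 Aged Sham mouse reaching the lowest Young Sham mice, and in the shortened lists Young Sham had 2 to 6 and Aged Sham 3 to 5. The chain at S1pr1 had 10, 9, 8, 9 and 7 of 15 members called in Young Sham, 12, 10, 13 and 9 in Young Bleo, 6, 9, 5 and 9 in Aged Sham, and 11, 14, 8, 4 and 6 in Aged Bleo. Young Bleo was 2.40 members above Young Sham (exact permutation p = 0.0794), a difference that did not pass.

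Of 8 named chains at other receptors and signalling genes, 3 passed in 1 comparison each at the unadjusted threshold. The 7-member chain upstream of Flt1 had 3, 5, 4, 4 and 3 called members in Young Sham and 2 in each Young Bleo mouse, a difference of -1.8 (exact permutation p = 0.0238, unadjusted), but 2, 2, 2, 1 and 1 against 1, 1, 2 and 2 with shortened lists. At Nrp2, a co-receptor for VEGF and semaphorins, Young Bleo had 6, 6, 4 and 5 of 7 members and Young Sham 2, 4, 4, 3 and 4 (exact p = 0.0317), but 2, 3, 3 and 2 against 2, 1, 2, 2 and 2 with shortened lists, which overlapped. At Acvrl1, which encodes the BMP9 and BMP10 receptor ALK1, Aged Sham had 6, 7, 7 and 7 of 10 members and Young Sham 8, 9, 7, 8 and 8, a difference of -1.25 (exact p = 0.0397), but 6, 7, 6 and 6 against 7, 5, 6, 7 and 6 with shortened lists, which overlapped. The other 5, a pair at Flt1 and those at Id1, Smad6 and Notch1, passed in none of the 4 comparisons, with exact permutation p from 0.103 (the 12-member Flt1 chain, -2.4 members in Aged Bleo minus Young Sham) to 1.

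Chains at junction genes gave no difference that passed between these groups. At Cdh5, 8, 8, 6, 5 and 4 of 9 members were called in Young Sham and 2, 5, 3 and 4 in Aged Sham, a difference of -2.7 members (exact permutation p = 0.0794). At Cldn5 the counts were 7, 7, 6, 6 and 5 of 9 in Young Sham and 5, 6, 5 and 6 in Aged Sham (exact p = 0.238). In both chains Aged Bleo 2, the longest list, had among the highest counts, with 7 and 9.

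From Young Sham to Aged Sham the chains named for their small p lay at 4930592I03Rik, Glp1r and Iffo2. Glp1r encodes the receptor for glucagon-like peptide 1, and 5 of the 6 members of its chain, all upstream of its TSS, held the ETS letters. Called were 6, 6, 6, 5 and 5 of 6 members in Young Sham, 4, 3, 5 and 3 in Young Bleo, 2, 3, 2 and 2 in Aged Sham, and 2, 4, 2, 2 and 2 in Aged Bleo. Every aged mouse lay below every Young Sham mouse, with differences of -3.35 in Aged Sham and -3.2 in Aged Bleo (exact permutation p = 0.00794 for each, unadjusted), and Young Bleo minus Young Sham was -1.85 (exact p = 0.0238). When the lists were shortened, 2 members were called in every aged and Young Bleo mouse and 2 or 3 in Young Sham, and the groups overlapped. The 4930592I03Rik chain had all 6 members called in each Young Sham mouse and 1, 2, 2 and 5 in Aged Sham, and the Iffo2 chain 5, 6, 6, 6 and 5 against 2, 4, 2 and 3 (exact permutation p = 0.00794 for each). With shortened lists these groups overlapped, at 2, 1, 1, 1 and 2 against 1 in each Aged Sham mouse for 4930592I03Rik and 3, 3, 2, 2 and 1 against 2 in each for Iffo2. The Sash1 chain was lower than Young Sham in both aged groups, with 5, 6, 4, 4 and 4 of 6 in Young Sham, 3, 3, 2 and 3 in Aged Sham and 3, 2, 2, 2 and 3 in Aged Bleo (exact p = 0.00794 for each), but with shortened lists every Young Sham and Aged Sham mouse had 2 and the Aged Bleo mice 1 or 2. Of the 7 chains that were lower in Aged Sham in whole and shortened lists alike, the leading genes were Trpm1, Adgre5, Tspan18, Tm4sf1, Fnip2, Osbpl8 and Cd9. This list was named after its values were seen and is not set against chains of any length. Cd9 encodes a membrane protein of the tetraspanin kind, and Tm4sf1 is a known endothelial marker. No chain passed the test upwards in Aged Sham, and the smallest p in that direction belonged to Gm9530, with 4 to 6 of 8 members in Young Sham and 5 to 6 in Aged Sham (exact permutation p = 0.0873). With shortened lists the Gm9530 chain had 4, 3, 3, 3 and 3 against 5, 4, 4 and 4 (exact permutation p = 0.0397).

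After bleomycin in young mice the chains named for a small p upwards lay at 8430430B14Rik, Irx3 and Gm10432. Irx3 is an Iroquois homeobox gene. Its 6-member chain, upstream of the gene on chromosome 8, had 3, 3, 2, 3 and 3 called members in Young Sham, 5, 6, 6 and 5 in Young Bleo, 2, 6, 2 and 4 in Aged Sham, and 6, 6, 5, 2 and 2 in Aged Bleo. Every Young Bleo mouse was above every Young Sham mouse, by 2.7 members (exact permutation p = 0.00794, unadjusted), while Aged Bleo covered the whole range and differed from Aged Sham by 0.7 (exact p = 0.619). With shortened lists Young Sham had 2 in each mouse and Young Bleo 4, 4, 4 and 3, again without overlap (exact p = 0.00794). Of the 6 members, those at 22.482 and 42.145 kb from the start of the chain were called in all 4 Young Bleo and no Young Sham mice, and also in 1 and 2 Aged Sham and 3 and 3 Aged Bleo mice. The 8430430B14Rik chain rose from 2, 1, 1, 1 and 1 of 8 members to 5, 4, 8 and 4 (exact permutation p = 0.00794), and with shortened lists from 1 in each mouse to 2, 1, 4 and 2 (exact p = 0.0476). The Gm10432 chain rose from 4, 4, 4, 5 and 4 of 8 to 6, 8, 8 and 7 (exact p = 0.00794) but met Young Sham in the shortened lists, with 4, 3, 3, 3 and 3 against 4, 4, 4 and 3. Other chains higher in Young Bleo in both kinds of list were led by Pmp2, Mpzl1, Sfi1, Snai1, Bcr, Itgb4, Plxna2, Pim3 and Tmem44. They too were named after their values were seen and are not set against chains of any length.

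Downwards, the chains named for a small p after bleomycin in young mice lay at Nhlrc2, Fam53b and Bcas1os2. At Nhlrc2 9, 8, 6, 8 and 6 of 10 members were called in Young Sham and 3, 3, 4 and 4 in Young Bleo, without overlap (exact permutation p = 0.00794, unadjusted), and in the shortened lists 2, 3, 3, 3 and 3 against 1, 2, 1 and 2 (exact p = 0.0317). At Fam53b the counts were 7, 6, 7, 7 and 6 of 7 against 4, 5, 5 and 4 (exact p = 0.00794), and in the shortened lists 4 in each Young Sham mouse against 3, 4, 3 and 3 (exact p = 0.0476). The Fam53b chain was lower in Aged Sham too, with 4, 5, 4 and 4 (exact p = 0.00794), but with shortened lists it had 4, 3, 4 and 4 there. At Bcas1os2 the counts fell from 5, 5, 5, 5 and 3 of 6 to 1, 2, 2 and 2 (exact p = 0.0159), and in the shortened lists no list held more than 1.

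Within aged mice 4 chains passed at the unadjusted threshold. The chain at She, an SH2-domain adaptor gene of endothelium, had 6, 7, 6 and 6 of 7 members called in Aged Sham and 5, 6, 5, 2 and 4 in Aged Bleo (exact permutation p = 0.0397, unadjusted), and in the shortened lists 5 in each Aged Sham mouse against 4, 4, 3, 2 and 4 (exact p = 0.00794). This was the only chain called lower in both kinds of list in that comparison. Higher in Aged Bleo were G530011O06Rik, with 1, 1, 1 and 2 of 7 against 4, 7, 3, 3 and 2 (exact p = 0.0238), 1600014C10Rik, with 1, 2, 2 and 2 of 9 against 7, 4, 2, 3 and 3 (exact p = 0.0397), and Tnni1, with 2 of 7 in each mouse against 4, 5, 3, 3 and 2 (exact p = 0.0476). The G530011O06Rik chain on chromosome X was one of the repeated chains, its median member having 52.7% of its words elsewhere, and none of these 3 passed with shortened lists.

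In the longest chain, at Sfi1 and Pisd-ps1, the order of the groups depended on list length. Called were 17, 14, 14, 14 and 11 of 24 members in Young Sham, 17, 22, 19 and 20 in Young Bleo, 8, 14, 10 and 12 in Aged Sham, and 16, 18, 10, 8 and 12 in Aged Bleo. Young Bleo was 5.5 members above Young Sham (exact permutation p = 0.0238, unadjusted). With shortened lists Young Sham kept 3, 2, 4, 2 and 2 members and the other groups 6 to 11, with no overlap. Young Sham thus had the fewest members of this chain among its top peaks, and not in the whole lists.

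**Figure D4:**
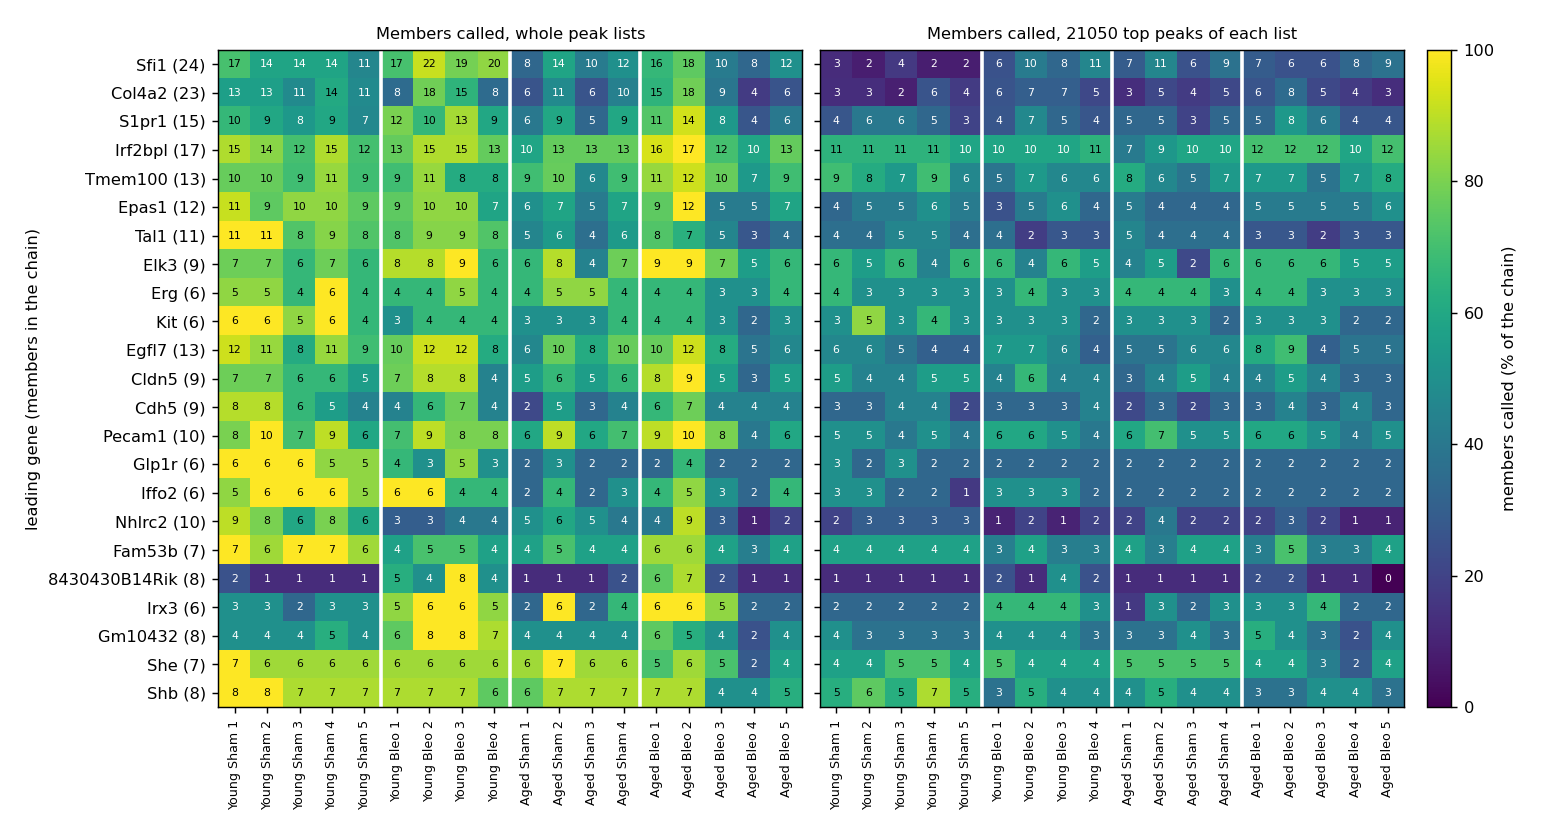
Number of called members for 23 chains (rows, leading gene with the chain's members in parentheses) in each of the 18 mice (columns, groups split by white lines), coloured by the percentage of the chain that was called; left, whole lists, right, lists shortened to 21050 peaks. The Irx3 row is higher in Young Bleo than in Young Sham on both sides, the Glp1r and Epas1 rows lose their difference on the right, and the Sfi1 row is lowest in Young Sham on the right.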

How the data were processed

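Each of the 18 lists was one mouse's ATAC-seq peaks. Per the study's methods, the authors aligned reads with BWA to mm10 and called each mouse's peaks with MACS2 (FDR 1%). They deposited, for each peak, a fold enrichment (a ratio), a −log10 p-value, a −log10 q-value and a score. Read counts were not part of the lists used here, so the authors' differential test on reads was not repeated, and a region counted as called where a list held a peak of at least 1 bp overlap. A region just under the caller's threshold counts as absent, so calls depend on depth, which is not given. 19 mitochondrial peaks were left out. TSSs were those of 45756 curated RefSeq transcripts. Fragments at a summit were solved from fold and p; between 99.9865 and 100% per list came out whole within 0.05. Groups were compared by exact two-sided permutation tests over mice for shares and chain counts, and by Fisher's exact test per region, with Benjamini-Hochberg adjustment over the 4 comparisons, all chains or all regions. limma 3.58.1 in R 4.3.3 was an alternative; Python 3.11.15, numpy 2.4.6, scipy 1.17.1 and pandas 2.3.3 were used, and the tests were checked on simulated data. Named chains were the 15 longest (a cut through the 7 chains tied at 13 members), the 3 with the smallest p per direction and comparison (ties by larger difference in share), and up to 4 per gene list. Members and lists were chosen with earlier results of these data known. Replicate numbers did not pair mice: same-number correlations of members' deviations ranged from -0.16 to 0.18. No duplicate lists were found (shared regions 51.9 to 83.4% of the union). Alternatives varied q, fold, list length, the region and chain rules, chromosomes, scaling and left-out mice.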

Additional observations from a re-analysis of the deposited data

Results flagged for a closer look

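In 38 of 224 groups of values from 4 or 5 mice, 1 mouse stood apart from the rest of its group by Dixon's test. The 224 included values other than the counts of the 54 named chains, but all 38 were numbers of called members in such chains. Chance alone marks about 1 in 20 groups for continuous values, and these are small whole numbers in which 3 or 4 equal mice and 1 that differs are enough, so most of the differences were of 1 member.

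The widest gaps were of 3 or more members. Aged Bleo 2, the mouse with the most peaks, called 7 members of the Flt1 chain that reaches into Pan3, against 2 to 3 in the other Aged Bleo mice, and 6 of the chain upstream of Flt1, again against 2 to 3. Aged Sham 4 called 5 members at Nrp2 against 2 in each other Aged Sham mouse. Aged Sham 2 called 10 at Plpp1 against 7, and Aged Sham 1 called 10 at Irf2bpl against 13. Young Bleo 3 called 5 in the 20-member Gm20826 chain against 8. Differences of 2 members were found at Pcdh1 (Aged Sham 1, 11 against 13), the 6-member Gm20826 chain (Young Bleo 2, 2 against 4), Bcas1os2 (Young Sham 5, 3 against 5), Notch1 (Aged Sham 1, 3 against 5) and Glp1r (Aged Bleo 2, 4 against 2).

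The rest differed by 1. Aged Sham 1 stood lower at AU015791 (8 against 9), Gm9530 (5 against 6), Shb (6 against 7), 1600014C10Rik (1 against 2) and Acvrl1 (6 against 7), and higher at Ets1 (4 against 3). Aged Sham 2 stood higher at Mir101c (17 against 16), Glp1r (3 against 2), Fam53b (5 against 4) and She (7 against 6). Aged Sham 3 was lower at Sash1 (2 against 3), and Aged Sham 4 higher at 8430430B14Rik (2 against 1), G530011O06Rik (2 against 1) and Kit (4 against 3). Among Young Sham mice the differences were at 8430430B14Rik (mouse 1, 2 against 1), She (mouse 1, 7 against 6), the 6-member Gm20826 chain (mouse 3, 4 against 3), Irx3 (mouse 3, 2 against 3), the Flt1 chain reaching into Pan3 (mouse 3, 3 against 4), Gm10432 (mouse 4, 5 against 4) and P2ry2 (mouse 5, 2 against 3). Among Young Bleo mice they were at Bcas1os2 (mouse 1, 1 against 2), Lama5 (mouse 1, 8 against 9), Kit (mouse 1, 3 against 4), Erg (mouse 3, 5 against 4), Notch1 (mouse 3, 5 against 4) and Shb (mouse 4, 6 against 7).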

How the results depend on the processing

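The difference of 3.25 points between Aged Sham and Young Sham in the excess of members over other distal regions kept its sign in every alternative but lost the adjusted exact permutation test in 5 of them: 5.17 with peaks of fold 5 or more, 2.36 when regions were rebuilt from lists of equal length, 6.05 with a chain gap of 5 kb, 1.39 with shortened lists and the regions kept, and 3.46 with a replicate block. Leaving out 1 mouse gave 2.63 to 3.66, where fewer mice limit the p.

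For Aged Sham against Young Sham, the members that differed made up 4.53% with rebuilt equal lists (9 lower, 10 higher) and 2.26% with shortened lists (37 and 37), and the chains 17.2% (3 and 7), 12.8% (24 and 30), 21.6% relative to other distal regions (15 and 76), 27.3% by limma and 32.5% by limma with a replicate block. For Young Bleo against Young Sham the direction turned for chains with shortened lists (20.1%), on the relative scale (19.7%) and by limma with a replicate block (11.6%, 29 lower and 20 higher), which used 8 of the 9 mice. Blocked fits of 4 against 5 mice leave out mouse 5 of the larger group, here Young Sham 5, so block and left-out mouse cannot be told apart. For Aged Bleo against Young Sham, members made up 4.06% with rebuilt lists (7 lower, 10 higher) and 6.41% when peaks had to cover 50% of a region. Chains made up 17.2% with rebuilt lists, 16.1% with that cover, 2.94% at a 5 kb gap, 12.1% with shortened lists, 12.3% by limma, 15.6% by limma with a replicate block and 19.2% on the relative scale, the last with the direction turned. For Aged Bleo against Aged Sham, members made up 1.671% with rebuilt lists, 1.07% with 50% cover, 0.367% in chains of 10 or more and 0.667% without repeated chains, the last 3 with the direction turned. Chains made up 0.269% at −log10 q of 5, 0.361% at fold 5, 8.62% with rebuilt lists, 1.62% with regions of 3 or more mice, 0% in chains of 10 or more and at a 5 kb gap, and, with the direction turned, 1.18% with 50% cover, 4.98% with shortened lists and 4.50% on the relative scale. The cause was not tested, other than that rebuilt lists left 58 chains and the 5 kb gap 34. Shares over chains of any length are given above for chains with shortened lists and on the relative scale. For chains in the other settings, and for members in all of them, no share over all chains or regions is given. Those shares are therefore not set against a background.

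Leaving out 1 mouse gave members of 1.37 to 2.53% and chains of 4.98 (without Young Sham 2) to 13.7% for Aged Sham against Young Sham, 1.95 to 3.54% and 3.79 to 9.24% for Young Bleo against Young Sham, 3.21 to 7.36% and 4.27 to 17.5% (both highest without Aged Bleo 2) for Aged Bleo against Young Sham, and 0.0305 to 0.183% and 0 to 0.474% for Aged Bleo against Aged Sham. Without Young Sham 5 the direction for Young Bleo against Young Sham turned, at 2.41% of members (42 lower, 37 higher) and 6.16% of chains (14 and 12). No share over all regions or chains is given with a mouse left out, so these shares are not set against a background. Without the members called in the mice of 1 group only, 36 of 40 comparisons of named chains that had passed at the unadjusted exact p still did, and the other 4 were Kit against Young Sham in all 3 groups and Tal1 in Aged Bleo. Fisher's test could not take the block. The chain at 1600014C10Rik turned to -0.25 members in Aged Bleo minus Aged Sham with peaks of fold 5 or more. Depth limits every call, since a region under the caller's threshold counts as absent.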
